A study of Oryza sativa with 12 samples.

Results

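The 8 genes described here are the PIP2 plasma membrane aquaporins of rice, OsPIP2-1 to OsPIP2-8, taken by locus from a count table of 38978 genes. Their transcripts were followed through 12 leaf RNA-seq libraries in 6 groups of 2. Both genes that the study altered, OsPIP2-1 and OsPIP2-7, are members of the family.

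Aquaporins are channel proteins that let water cross membranes, and the PIP group sits in the plasma membrane. PIP2 proteins are in general the efficient water channels of that group, while PIP1 proteins often reach the plasma membrane only when they assemble with a PIP2 partner, as shown in maize. The spinach PIP2 channel is closed by dephosphorylation and by acidification of the cytosol, and some PIP2 proteins also pass hydrogen peroxide or carbon dioxide.

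All plants were Pusa Basmati-1, an indica rice with fragrant long grains, and vegetative leaves were taken 2.5 months after transfer to the greenhouse. The PIP2-1 OE group carried ZmUbiquitin::3xMyc-OsPIP2-1, a tagged copy under the maize ubiquitin promoter, which is active in most tissues. The PIP2-1 KO group was a CRISPR-Cas9 knockout of OsPIP2-1 free of T-DNA, and the PIP2-1 WT group was the unaltered variety. The PIP2-7 OE group carried ZmUbiquitin::3xFLAG-OsPIP2-7, the PIP2-7 KO group was the T-DNA-free knockout of OsPIP2-7, and the PIP2-7 WT group was a separate pair of wild-type libraries. The labels give neither the number of plants nor the number of independent lines behind a group, nor the position of the edits. P-values therefore measure the spread between 2 libraries, which may be technical. With 2 libraries against 2, an exact two-sided permutation test cannot go below 0.333, so tests rest on the fit across all genes.

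Library totals were 24636211 to 40666127 counts. The 7 leaf markers (small subunits of Rubisco, chlorophyll a/b-binding proteins and PsbO) summed to 14115 to 54282 CPM (counts relative to library size, scaled by TMM, a method that sets libraries to a common level over most genes). The 3 root markers summed to 5.59 to 12.3 CPM, the 3 secondary-wall cellulose synthases to 0.732 to 3.72 CPM and the 4 floral genes to 7.62 to 30.8 CPM. The leaf sum differed between groups, with 25477 and 25897 CPM in PIP2-1 OE, 50298 and 54282 CPM in PIP2-1 KO, and 15313 and 15750 CPM in PIP2-1 WT. In the other experiment it was 14115 and 14216 CPM in PIP2-7 OE, 17039 and 17240 CPM in PIP2-7 KO, and 30596 and 31087 CPM in PIP2-7 WT. The wild-type pairs themselves therefore stood apart, and the leaf sum's part in the results below was not tested. In bulk leaf RNA, fewer cells of a type and less RNA per cell cannot be told apart.

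On the IRGSP-1.0 genome, 3 members lie together on chromosome 7. OsPIP2-4 (Os07g0448100, 15358960 to 15360391), OsPIP2-5 (Os07g0448200, 15369152 to 15370242) and OsPIP2-1 (Os07g0448800, 15406442 to 15409748) are all on the plus strand and span 50789 bases. OsPIP2-3 (Os04g0521100, 26099273 to 26101764, plus strand) and OsPIP2-6 (Os04g0233400, 8948360 to 8949943, minus strand) are both on chromosome 4. OsPIP2-2 (Os02g0629200) lies on chromosome 2 at 25162876 to 25166544, OsPIP2-7 (Os09g0541000) on chromosome 9 at 21310132 to 21311479, and OsPIP2-8 (Os03g0861300) on chromosome 3 at 36360645 to 36361743, all on the plus strand. Their counted exon lengths run from 909 bases in OsPIP2-5 to 1307 bases in OsPIP2-6, in 1 exon block in OsPIP2-8 and 2 to 4 in the others. In 6 of the 8, an annotated locus on the opposite strand overlaps the gene. Counting was by strand, and these loci held at most 0.636% as many counts as the member they overlap.

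OsPIP2-1, the overexpressed gene of the first experiment, had 1932 and 1869 CPM in the PIP2-1 OE libraries, 136 and 141 CPM in PIP2-1 KO, and 130.3 and 132 CPM in PIP2-1 WT. Both OE libraries lay far above the other 10, and the KO libraries lay slightly above their WT. Against WT the OE change was 3.85 on the log2 scale (SE 0.04, edgeR quasi-likelihood test with Benjamini-Hochberg adjustment, adjusted p = 5.04e-39). The KO difference was 0.06 (SE 0.04) and missed the threshold of 0.05 (edgeR adjusted p = 0.192), though it passed at 0.10 without PIP2-1 KO replicate 1 (edgeR adjusted p = 0.0402). It was -0.03 against the PIP2-7 WT pair (edgeR adjusted p = 0.558) and -0.18 in TPM, a scale of counts per gene length over the library's sum, without TMM, in which the median of all genes moved by -0.24. Counts over the whole gene do not check a CRISPR-Cas9 edit, and reads of the tagged copy and of the native gene cannot be told apart.

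In the other experiment OsPIP2-1 stayed within a narrow range. It had 114.8 and 114.8 CPM in PIP2-7 OE, 150.5 and 153 CPM in PIP2-7 KO, and 139 and 143 CPM in PIP2-7 WT. The 3 groups did not overlap. OsPIP2-1 fell by 0.29 in PIP2-7 OE (SE 0.03, edgeR adjusted p = 4.78e-10). That fall is relative to the TMM scaling, since in TPM, where the median of all genes moved by 0.28, the difference was -0.0022 and the libraries overlapped, at 111.7 and 114.6 TPM in PIP2-7 OE and 111.3 and 115.3 TPM in PIP2-7 WT. It rose by 0.10 in PIP2-7 KO (SE 0.03, edgeR adjusted p = 0.00656), a call that was lost without PIP2-7 WT replicate 1 (0.08, edgeR adjusted p = 0.114) or PIP2-7 KO replicate 2 (0.09, edgeR adjusted p = 0.0578).

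OsPIP2-7, the target of the second experiment, had 1734 and 1632 CPM in PIP2-7 OE, 161 and 156 CPM in PIP2-7 KO, and 691 and 695 CPM in PIP2-7 WT. The 3 groups were separate, with the knockout lowest of all 6 groups. The change against WT was 1.29 in OE (SE 0.03, edgeR adjusted p = 5.52e-36) and -2.13 in KO (SE 0.03, edgeR adjusted p = 6.10e-43). The transcript thus remained present in the knockout, as 38.6% and 38.0% of all PIP2 counts.

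The OsPIP2-7 transcript also differed between the groups of the PIP2-1 experiment, where it was not altered by design. It had 293 and 294 CPM in PIP2-1 OE, 948 and 992 CPM in PIP2-1 KO, and 334.8 and 334.8 CPM in PIP2-1 WT. The KO libraries were well above the other 4. OsPIP2-7 rose by 1.51 in PIP2-1 KO (SE 0.04, edgeR adjusted p = 1.15e-28) and fell by 0.20 in PIP2-1 OE (SE 0.04, edgeR adjusted p = 2.10e-05). Both comparisons share the PIP2-1 WT libraries. Set against the PIP2-7 WT pair instead, the KO difference was 0.49 (edgeR adjusted p = 1.79e-19) and the OE difference -1.23. With all 4 WT libraries as the reference, the KO difference was 0.91 (edgeR adjusted p = 0.0490) and the OE difference -0.80, which missed the threshold (edgeR adjusted p = 0.160).

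**Figure D1:**
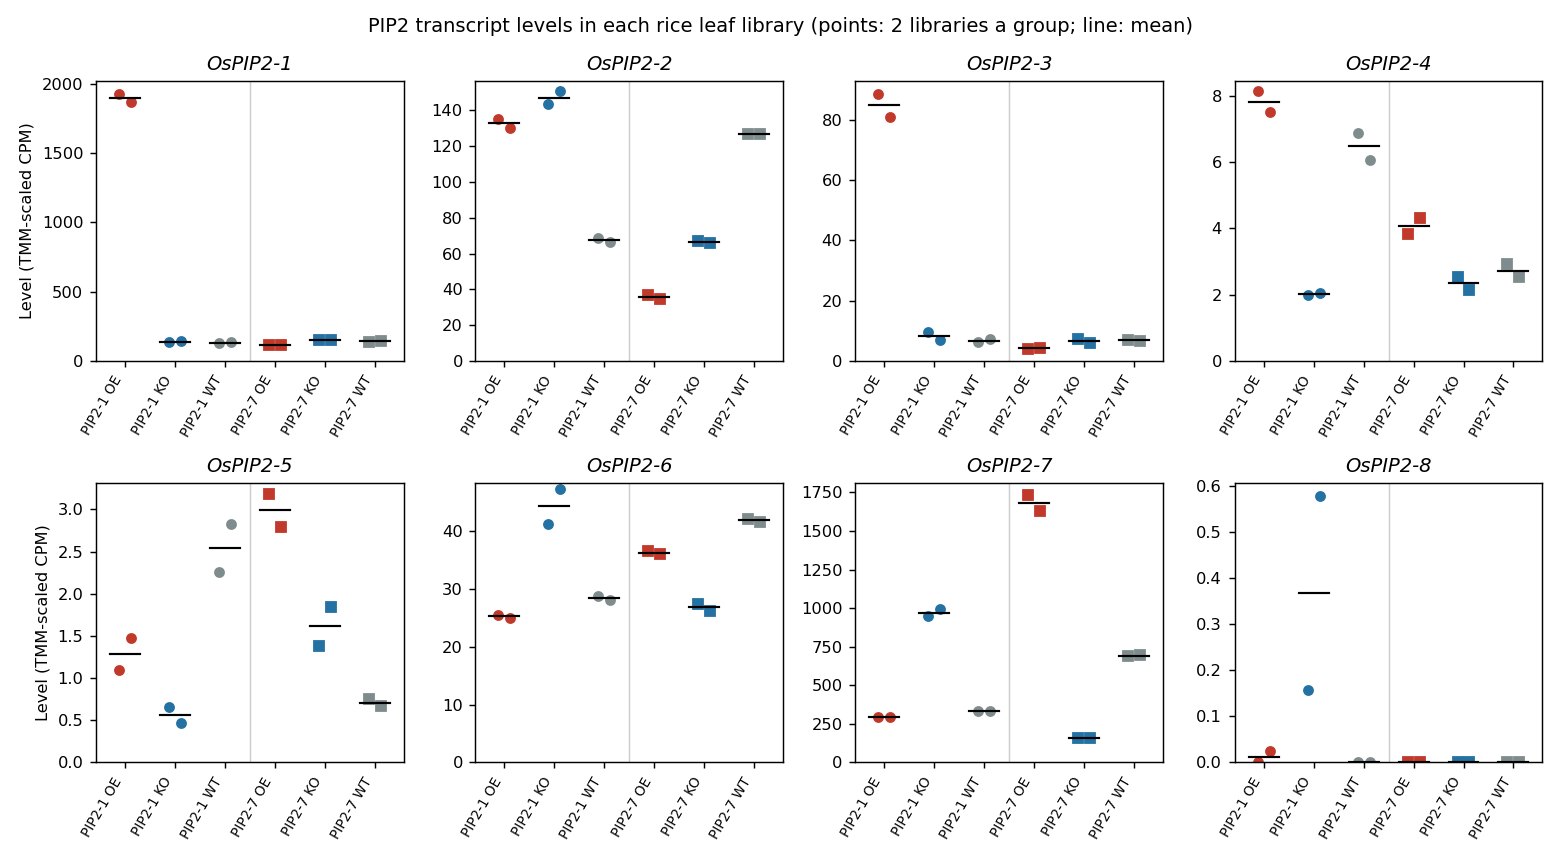
Level of each PIP2 gene in TMM-scaled CPM (vertical axis from 0, own scale in each panel) in the 6 groups (horizontal axis, OE in red, KO in blue, WT in grey, circles for the PIP2-1 experiment and squares for the PIP2-7 experiment). Points are the 2 libraries of a group and lines their means. OsPIP2-1 and OsPIP2-3 are both highest in PIP2-1 OE, and OsPIP2-7 ranges from 156 CPM in PIP2-7 KO to 1734 CPM in PIP2-7 OE.

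Levels of different genes were compared in TPM. In PIP2-1 WT leaves OsPIP2-7 was highest at 371 ± 3.09 TPM, followed by OsPIP2-1 at 140.0 ± 0.332, OsPIP2-2 at 74.2 ± 2.53 and OsPIP2-6 at 30.1 ± 0.745 (SD, n = 2 each). In PIP2-7 WT leaves the same 4 genes led in the same order, at 578 ± 5.04, 113 ± 2.82, 104.8 ± 0.378 and 33.2 ± 0.161 TPM (SD, n = 2 each). OsPIP2-3, OsPIP2-4 and OsPIP2-5 had mean TPM values of 0.812 to 7.38 in the WT groups, and OsPIP2-8 had no count there.

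The order changed in the altered lines. OsPIP2-1 led in PIP2-1 OE at 1838 ± 93.8 TPM, ahead of OsPIP2-7 at 295 ± 7.56 TPM (SD, n = 2 each). OsPIP2-3 ranked next after OsPIP2-2 there at 83.7 ± 7.62 TPM, above OsPIP2-6 at 24.2 ± 1.00 TPM (SD, n = 2 each). In PIP2-7 KO, OsPIP2-7 at 167 ± 1.67 TPM was just above OsPIP2-1 at 154 ± 3.36 TPM, with no overlap between libraries (SD, n = 2 each). In PIP2-1 KO, OsPIP2-2 at 135 ± 3.54 TPM stood above OsPIP2-1 at 124 ± 2.06 TPM (SD, n = 2 each). In PIP2-7 OE, OsPIP2-2 and OsPIP2-6 overlapped at 36.2 ± 1.10 and 35.4 ± 0.266 TPM, as did OsPIP2-4, OsPIP2-5 and OsPIP2-3 at 4.30 ± 0.449, 4.20 ± 0.305 and 4.17 ± 0.175 TPM (SD, n = 2 each).

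Expressed as a share of all PIP2 counts in a library, either OsPIP2-1 or OsPIP2-7 was the largest part of the family in each group. OsPIP2-1 made up 77.8% and 77.6% in PIP2-1 OE, 10.6% and 10.5% in PIP2-1 KO, and 22.5% and 22.9% in PIP2-1 WT. OsPIP2-7 made up 11.8% and 12.2% in PIP2-1 OE, 74.0% and 74.0% in PIP2-1 KO, and 57.9% and 58.0% in PIP2-1 WT. The make-up was therefore inverted between PIP2-1 OE and the other groups of that experiment.

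In the second experiment OsPIP2-7 made up 89.7% and 89.3% of PIP2 counts in PIP2-7 OE, 38.6% and 38.0% in PIP2-7 KO, and 68.4% and 68.4% in PIP2-7 WT. OsPIP2-1 made up 5.94% and 6.28% in PIP2-7 OE, 36.1% and 37.2% in PIP2-7 KO, and 13.8% and 14.1% in PIP2-7 WT. PIP2-7 KO was the group in which the 2 genes came closest. The share of OsPIP2-1 in PIP2-7 KO was well above that in PIP2-7 WT, and the summed PIP2 counts were smaller. The level of OsPIP2-1 itself differed by 0.10 on the log2 scale with TMM. In TPM it differed by 0.44, where the median of all genes moved by 0.32. The OsPIP2-2 share was 16.0% and 16.0% in PIP2-7 KO, 1.91% and 1.88% in PIP2-7 OE, and 11.2% to 12.6% in both WT pairs and PIP2-1 KO. The 95% Wilson intervals of single shares were at most 1.61 percentage points wide and cover counting error only. Shares per gene length were close to these for the genes named here, with OsPIP2-7 at 89.7 ± 0.302% and OsPIP2-1 at 5.89 ± 0.234% in PIP2-7 OE (SD, n = 2 each). The short OsPIP2-5 moved more, from a mean of 0.439% to 0.609% in PIP2-1 WT.

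**Figure D2:**
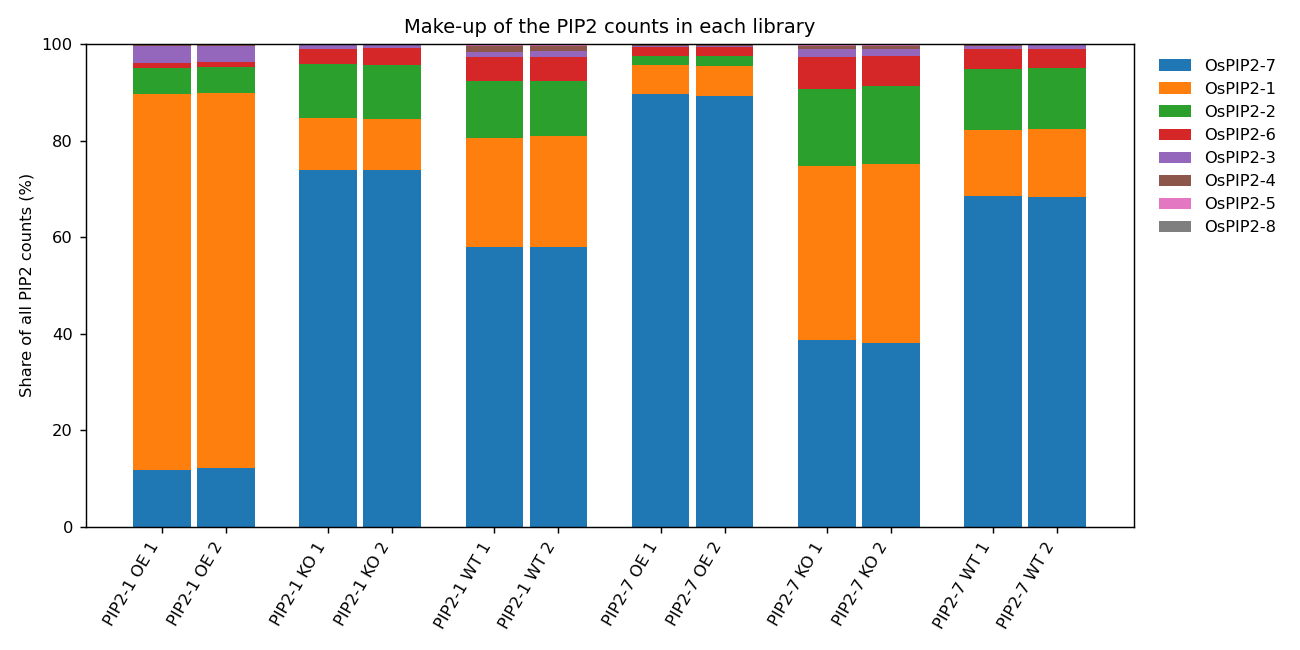
Share of each PIP2 gene in the summed PIP2 counts (vertical axis, %) of each of the 12 libraries (horizontal axis, group and replicate). OsPIP2-7 takes 89.7% in the first PIP2-7 OE library and 11.8% in the first PIP2-1 OE library, where OsPIP2-1 takes 77.8%.

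The summed PIP2 level averaged 2446 ± 53.1 CPM in PIP2-1 OE, 1311 ± 42.1 CPM in PIP2-1 KO and 578 ± 0.326 CPM in PIP2-1 WT (SD, n = 2 each). It averaged 1881 ± 73.9 CPM in PIP2-7 OE, 414 ± 3.83 CPM in PIP2-7 KO and 1013 ± 4.56 CPM in PIP2-7 WT (SD, n = 2 each). The PIP2-1 knockout thus had more PIP2 counts than its wild type, and the PIP2-7 knockout fewer.

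Without OsPIP2-1 and OsPIP2-7 the remaining 6 genes summed to 252 ± 9.49 CPM in PIP2-1 OE, 202 ± 7.47 CPM in PIP2-1 KO and 112 ± 1.73 CPM in PIP2-1 WT (SD, n = 2 each). They summed to 83.1 ± 1.92 CPM in PIP2-7 OE, 104 ± 2.47 CPM in PIP2-7 KO and 179 ± 1.09 CPM in PIP2-7 WT (SD, n = 2 each). The other members together were above WT in both lines of the first experiment and below WT in both lines of the second. Each experiment has its own WT pair, and the WT pairs stood apart in this sum, at 179 CPM in PIP2-7 WT against 112 CPM in PIP2-1 WT. The sum in PIP2-1 OE includes 84.9 CPM of OsPIP2-3, against 6.64 CPM in PIP2-1 WT. Near-identical PIP2 sequences can share reads, so this sum may still hold reads of OsPIP2-1, which was not tested.

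OsPIP2-2, the third most abundant member in WT leaves, was the largest of those 6 genes in 5 of the groups, while in PIP2-7 OE it overlapped OsPIP2-6. It had 136 and 130.4 CPM in PIP2-1 OE, 143 and 151 CPM in PIP2-1 KO, and 68.8 and 66.3 CPM in PIP2-1 WT. It had 36.9 and 34.5 CPM in PIP2-7 OE, 66.9 and 65.9 CPM in PIP2-7 KO, and 127 and 127 CPM in PIP2-7 WT. Both altered lines of the first experiment were above their WT and both of the second below theirs, with no overlap. OsPIP2-2 rose by 0.97 in PIP2-1 OE and 1.10 in PIP2-1 KO (SE 0.04 each, edgeR adjusted p = 7.36e-20 and 8.63e-22). It fell by 1.82 in PIP2-7 OE and fell by 0.93 in PIP2-7 KO (SE 0.04 each, edgeR adjusted p = 1.26e-34 and 1.15e-24).

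These directions lean on the WT pair. OsPIP2-2 was higher by 0.89 in PIP2-7 WT than in PIP2-1 WT (SE 0.04, edgeR adjusted p = 1.39e-25), and PIP2-7 KO overlapped PIP2-1 WT. Against the other WT pair the OsPIP2-2 difference was 0.08 in PIP2-1 OE (edgeR adjusted p = 0.0956), 0.21 in PIP2-1 KO, -0.91 in PIP2-7 OE and -0.04 in PIP2-7 KO (edgeR adjusted p = 0.537). Only the fall in PIP2-7 OE also passed with all 4 WT libraries as the reference (-1.42, edgeR adjusted p = 0.00470). The order of the groups by OsPIP2-2 ran broadly with the summed leaf markers given above, highest in PIP2-1 KO and lowest in PIP2-7 OE. The sum hides the Rubisco small subunit Os12g0291400, highest in PIP2-7 OE (2419 and 2475 CPM) and lowest in PIP2-7 WT (691 and 674 CPM). OsPIP2-2 was not alone, as the aquaporins OsPIP1-1 and OsTIP2-2 were also lowest in PIP2-7 OE, at 355 and 59.8 CPM.

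OsPIP2-6 varied less. It had 25.5 and 25.0 CPM in PIP2-1 OE, 41.2 and 47.1 CPM in PIP2-1 KO, and 28.8 and 28.1 CPM in PIP2-1 WT. It had 36.5 and 35.9 CPM in PIP2-7 OE, 27.4 and 26.1 CPM in PIP2-7 KO, and 42.1 and 41.5 CPM in PIP2-7 WT. No line overlapped its own WT, and the first knockout lay above its WT while the second lay below.

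OsPIP2-6 rose by 0.61 in PIP2-1 KO (SE 0.07, edgeR adjusted p = 1.35e-09) and fell by 0.64 in PIP2-7 KO (SE 0.06, edgeR adjusted p = 1.29e-13). Its changes in the overexpressors were small, at -0.18 in PIP2-1 OE (SE 0.07, edgeR adjusted p = 0.0391) and -0.20 in PIP2-7 OE (SE 0.05, edgeR adjusted p = 0.00146), where the difference turned to 0.09 in TPM. The fall in PIP2-1 OE did not pass without any 1 of its 4 libraries (edgeR adjusted p = 0.0752 to 0.158) or in DESeq2 (adjusted p = 0.131). Against the other WT pair the OsPIP2-6 difference was 0.08 in PIP2-1 KO and -0.10 in PIP2-7 KO, neither past the test (edgeR adjusted p = 0.317 and 0.227), and it turned to 0.36 in PIP2-7 OE (edgeR adjusted p = 2.44e-06).

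OsPIP2-3 had 88.7 and 81.1 CPM in PIP2-1 OE, 9.66 and 6.78 CPM in PIP2-1 KO, and 6.19 and 7.09 CPM in PIP2-1 WT. It had 4.08 and 4.22 CPM in PIP2-7 OE, 7.24 and 5.89 CPM in PIP2-7 KO, and 6.99 and 6.69 CPM in PIP2-7 WT. The 2 PIP2-1 OE libraries stood alone, and the KO libraries of both experiments overlapped their WT. OsPIP2-3 rose by 3.65 in PIP2-1 OE (SE 0.09, edgeR adjusted p = 3.32e-22), close to the 3.85 of OsPIP2-1 itself. It fell by 0.71 in PIP2-7 OE (SE 0.13, edgeR adjusted p = 1.10e-05). The rise of 0.29 in PIP2-1 KO (SE 0.13, edgeR adjusted p = 0.0479) was lost without PIP2-1 KO replicate 1 (0.0064, edgeR adjusted p = 0.975) or PIP2-1 WT replicate 1 (0.22, edgeR adjusted p = 0.220), with only the 4 libraries compared (edgeR adjusted p = 0.0605) and in DESeq2 (adjusted p = 0.239). Over the 4 libraries left out in turn it ranged from 0.0064 to 0.50.

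The counts of OsPIP2-3 moved with those of OsPIP2-1. They were 4.34% and 4.59% of the OsPIP2-1 counts in the 2 PIP2-1 OE libraries, and 3.55% to 7.08% in the other 10 libraries. A further locus on chromosome 7 between OsPIP2-5 and OsPIP2-1, Os07g0448400 (15376916 to 15378289), is also named OsPIP2 in the authors' deposited table but is not among the 8 genes. Its counts were 3.42% and 3.67% of the OsPIP2-1 counts in PIP2-1 OE, and 3.21% to 4.84% elsewhere. It had 2788 and 2598 counts in PIP2-1 OE, against 135 and 180 counts in PIP2-1 WT. OsPIP2-4 and OsPIP2-5, the chromosome 7 neighbours of OsPIP2-1, did not move in this way. The counting gave reads with several alignments to each place where they aligned, so near-identical PIP2 sequences can share reads, and the levels of OsPIP2-3 and Os07g0448400 are uncertain for that reason. How many of their reads were shared was not tested.

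**Figure D3:**
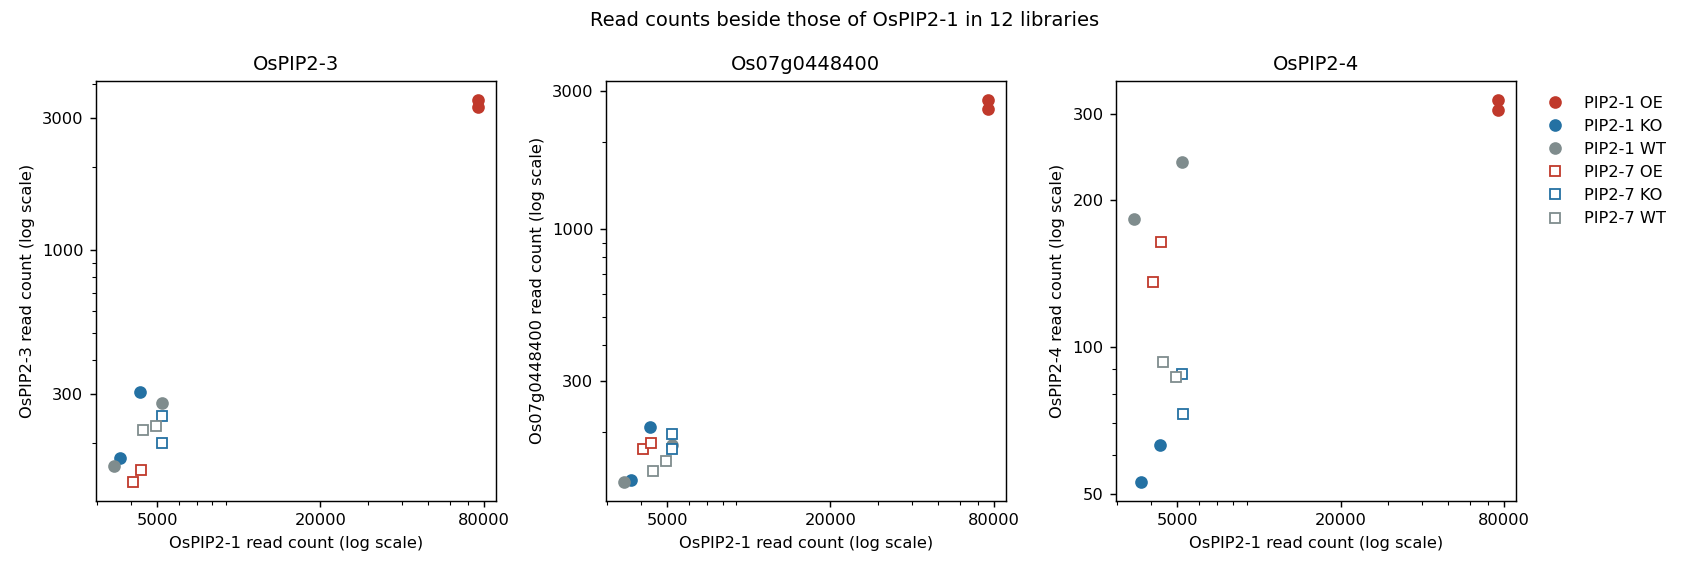
Read counts of OsPIP2-3, of Os07g0448400 and of OsPIP2-4 (vertical axes, log scale) against those of OsPIP2-1 (horizontal axes, log scale) in the 12 libraries, coloured by genotype, with filled circles for the PIP2-1 experiment and open squares for the PIP2-7 experiment. OsPIP2-3 and Os07g0448400 reach 3487 and 2788 counts where OsPIP2-1 has 75938, while OsPIP2-4 has 320 counts there and 239 in a PIP2-1 WT library.

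OsPIP2-4, the first gene of the chromosome 7 cluster, had 8.14 and 7.51 CPM in PIP2-1 OE, 1.99 and 2.04 CPM in PIP2-1 KO, and 6.87 and 6.08 CPM in PIP2-1 WT. It had 3.83 and 4.33 CPM in PIP2-7 OE, 2.54 and 2.14 CPM in PIP2-7 KO, and 2.92 and 2.52 CPM in PIP2-7 WT. The PIP2-1 knockout was the lowest group, and the PIP2-7 knockout overlapped its WT. OsPIP2-4 fell by 1.69 in PIP2-1 KO (SE 0.17, edgeR adjusted p = 5.61e-11) and rose by 0.60 in PIP2-7 OE (SE 0.17, edgeR adjusted p = 0.00248). Its difference was 0.27 in PIP2-1 OE (SE 0.13, edgeR adjusted p = 0.0879) and -0.21 in PIP2-7 KO (SE 0.19, edgeR adjusted p = 0.338). Against the other WT pair the fall in PIP2-1 KO was -0.43 and did not pass (edgeR adjusted p = 0.0674), and the difference in PIP2-7 OE turned to -0.64 (edgeR adjusted p = 1.75e-04). Against that pair the other lines passed, at 1.54 in PIP2-1 OE (edgeR adjusted p = 6.94e-13) and -1.47 in PIP2-7 KO (edgeR adjusted p = 2.73e-11). The difference in PIP2-1 OE also passed with only the 4 libraries compared (0.28, edgeR adjusted p = 0.0491).

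OsPIP2-5 was near the lower end of detection, with 12 to 113 counts a library. It had 1.09 and 1.48 CPM in PIP2-1 OE, 0.663 and 0.463 CPM in PIP2-1 KO, and 2.25 and 2.82 CPM in PIP2-1 WT. It had 3.18 and 2.80 CPM in PIP2-7 OE, 1.39 and 1.84 CPM in PIP2-7 KO, and 0.753 and 0.666 CPM in PIP2-7 WT. Both lines were below WT in the first experiment and above WT in the second, without overlap. OsPIP2-5 fell by 1.00 in PIP2-1 OE (SE 0.25), fell by 2.18 in PIP2-1 KO (SE 0.31), and rose by 2.08 in PIP2-7 OE (SE 0.26) and by 1.18 in PIP2-7 KO (SE 0.29). The edgeR adjusted p-values were 0.00126 and 1.39e-07 in the first experiment and 1.74e-09 and 3.60e-04 in the second.

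OsPIP2-5 also differed between the WT pairs, by -1.87 in PIP2-7 WT against PIP2-1 WT (SE 0.27, edgeR adjusted p = 4.62e-08). With the other pair as the reference the OsPIP2-5 difference was 0.87 in PIP2-1 OE, -0.31 in PIP2-1 KO, 0.23 in PIP2-7 OE and -0.68 in PIP2-7 KO, so that PIP2-1 OE and PIP2-7 KO changed direction. Without PIP2-1 WT replicate 2 the fall in PIP2-1 OE did not pass (-0.82, edgeR adjusted p = 0.0564).

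OsPIP2-8 did not pass the filter on low counts and was not tested in the main fits. Without that filter all 8 PIP2 genes were called between PIP2-1 OE and PIP2-1 KO, beside 13064 of all 32993 genes tested. OsPIP2-8 had 5 and 15 counts in PIP2-1 KO, 1 count in a PIP2-1 OE library, and 0 counts in the other 9 libraries. Relative to library size, the 20 counts of PIP2-1 KO, 15 of them from replicate 2, were 6.72 times the floor of PIP2-1 WT. The floor for a count of 0 was taken as 3 counts over the group. Over the same floor the ratio was 3.06 for PIP2-1 KO replicate 1 alone and 11.2 for replicate 2 alone. The corresponding ratios of the group were 7.64, 7.24 and 8.16 over the floors of PIP2-7 OE, PIP2-7 KO and PIP2-7 WT. A count of 0 allows a share of at most 0.00307% to 0.0214% of the PIP2 counts of a library. The floors allow for counting error in a count of 0 alone, not for that of the PIP2-1 KO counts, and no molecular tags were used.

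Counted over the family, 7 members passed the filter on low counts and OsPIP2-8 did not. In PIP2-1 OE against PIP2-1 WT, 3 members rose (OsPIP2-1, OsPIP2-2, OsPIP2-3) and 3 fell (OsPIP2-5, OsPIP2-6, OsPIP2-7), where 44.1% of all 23487 genes tested were called. In PIP2-1 KO against PIP2-1 WT, 4 rose (OsPIP2-2, OsPIP2-3, OsPIP2-6, OsPIP2-7) and 2 fell (OsPIP2-4, OsPIP2-5), beside 62.4% of all genes. Between PIP2-1 OE and PIP2-1 KO all 7 tested members were called, beside 55.5%. PIP2-1 OE differed from PIP2-1 KO by -1.71 in OsPIP2-7, -0.79 in OsPIP2-6 and 1.97 in OsPIP2-4 (SE 0.04, 0.07 and 0.16). The call of OsPIP2-2 in this comparison was lost without PIP2-1 OE replicate 2 or PIP2-1 KO replicate 2 (edgeR adjusted p = 0.136 and 0.109), and that of OsPIP2-5 without PIP2-1 OE replicate 2 (edgeR adjusted p = 0.0563).

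In PIP2-7 OE against PIP2-7 WT, 3 members rose (OsPIP2-4, OsPIP2-5, OsPIP2-7) and 4 fell (OsPIP2-1, OsPIP2-2, OsPIP2-3, OsPIP2-6), beside 67.1% of all 23627 genes tested. In PIP2-7 KO against PIP2-7 WT, 2 rose (OsPIP2-1, OsPIP2-5) and 3 fell (OsPIP2-2, OsPIP2-6, OsPIP2-7), beside 63.4%. Between PIP2-7 OE and PIP2-7 KO all 7 were called, beside 58% of all genes. Since most genes were called in most comparisons, the number of PIP2 genes called does not set the family apart. The median log2 change of the 7 tested members was 0.27 in PIP2-1 OE, 0.29 in PIP2-1 KO, -0.20 in PIP2-7 OE and -0.21 in PIP2-7 KO, beside 0.0015, -0.01, 0.0028 and 0 over all genes tested.

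The WT pairs share genotype, variety and tissue by their labels, and 56.6% of 24556 genes were called between them. Of the PIP2 genes, 4 were higher in PIP2-7 WT (OsPIP2-1, OsPIP2-2, OsPIP2-6, OsPIP2-7) and 2 were lower (OsPIP2-4, OsPIP2-5). OsPIP2-7 differed by 1.03 (SE 0.03, edgeR adjusted p = 9.14e-34), OsPIP2-6 by 0.54 (SE 0.06, edgeR adjusted p = 1.30e-10) and OsPIP2-4 by -1.26 (SE 0.16, edgeR adjusted p = 7.97e-10). OsPIP2-1 differed by 0.09 (SE 0.03, edgeR adjusted p = 0.0288), turned to -0.31 in TPM, and its call was lost without either PIP2-1 WT library or without PIP2-7 WT replicate 2 (edgeR adjusted p = 0.0723 to 0.258). OsPIP2-3 was not called (0.0085, SE 0.12, edgeR adjusted p = 0.965). Experiment, library set and WT pair cannot be told apart from each other in this design.

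The wild-type difference bears on size as well as on direction. In PIP2-7 WT, OsPIP2-7 was 1.03 above PIP2-1 WT on the log2 scale, beside rises against the own WT of 1.29 in PIP2-7 OE and 1.51 in PIP2-1 KO. The rises of OsPIP2-1 and OsPIP2-3 in PIP2-1 OE, by contrast, were 3.76 and 3.64 against the other WT pair. The uncertainty over shared reads in OsPIP2-3 applies here too. The fall of OsPIP2-7 in PIP2-7 KO was -1.09 against the other pair (edgeR adjusted p = 9.93e-34) and -1.70 against all 4 WT libraries (edgeR adjusted p = 0.00562).

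**Figure D4:**
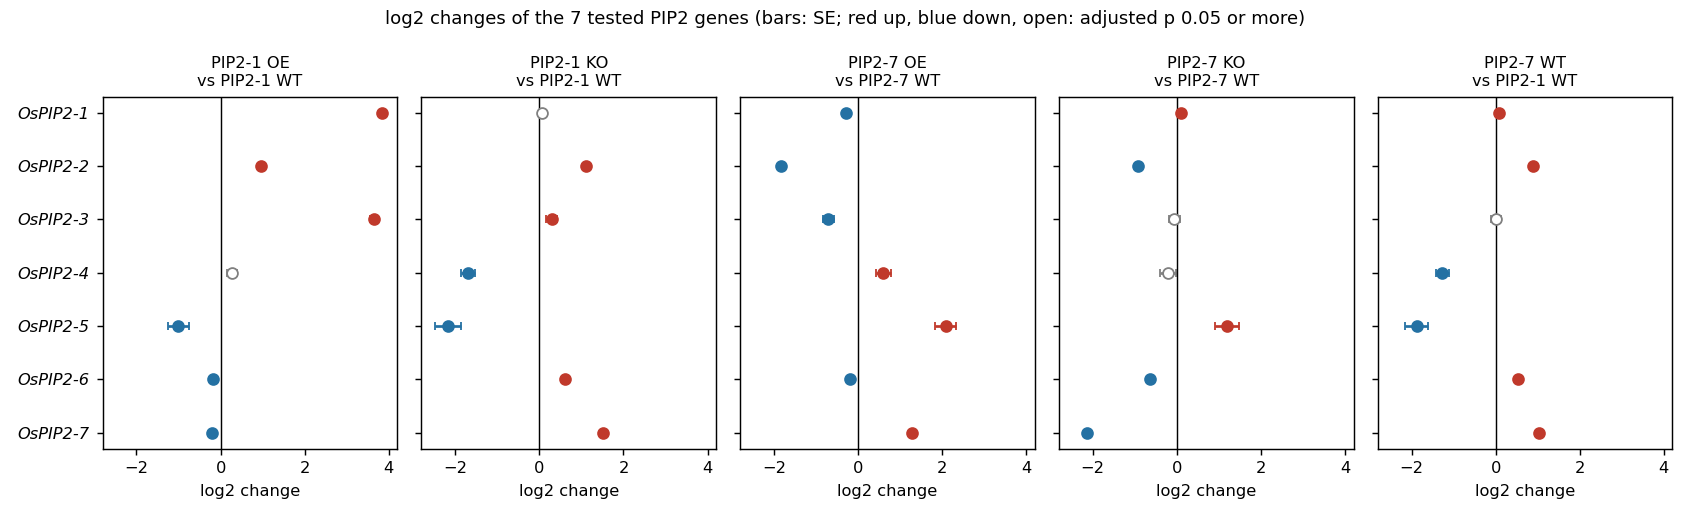
Fitted log2 change (horizontal axis) of the 7 tested PIP2 genes (rows) in 4 comparisons of a line with its own WT and in PIP2-7 WT against PIP2-1 WT. Bars are SE, red is higher, blue is lower and open points did not pass the test. OsPIP2-5 reads -2.18 in PIP2-1 KO and 2.08 in PIP2-7 OE, and -1.87 between the WT pairs.

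The difference between the experiments was itself tested, in 1 fit of all 12 libraries, as the change in the PIP2-7 line minus the change in the PIP2-1 line. For overexpression 62.6% of all genes were called, and of the non-target members OsPIP2-2 differed by -2.77, OsPIP2-3 by -4.34 and OsPIP2-5 by 3.10 (SE 0.06, 0.17 and 0.36). The OsPIP2-3 level in PIP2-1 OE is uncertain, as given above, because near-identical PIP2 sequences can share reads. OsPIP2-4 and OsPIP2-6 did not pass (0.35 and 0.0027, edgeR adjusted p = 0.154 and 0.988). For the knockouts 67.3% of all genes were called, and OsPIP2-2 differed by -2.03, OsPIP2-4 by 1.49, OsPIP2-5 by 3.37 and OsPIP2-6 by -1.25 (SE 0.06, 0.26, 0.42 and 0.09). OsPIP2-3 did not pass in the knockouts (-0.34, SE 0.17, edgeR adjusted p = 0.0795). It passed without a filter on low counts (-0.37, edgeR adjusted p = 0.0382), without PIP2-1 KO replicate 2 (-0.55, edgeR adjusted p = 0.00302) and without PIP2-7 KO replicate 1 (-0.50, edgeR adjusted p = 0.0205), and was -0.06 without PIP2-1 KO replicate 1.

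Of the 3 PIP1 genes, the partner subunits, all 3 rose in PIP2-1 OE, 2 rose and 1 fell in PIP2-1 KO, 2 fell in PIP2-7 OE, and 1 rose and 1 fell in PIP2-7 KO, where 44.1%, 62.4%, 67.1% and 63.4% of all genes were called. Per length, mean levels over the 6 groups were 377 to 740.1 TPM for OsPIP1-1, 674 to 891 TPM for OsPIP1-2 and 20.7 to 178 TPM for OsPIP1-3. OsPIP1-1 averaged 550.4 ± 16.4 CPM in PIP2-1 OE, 769.7 ± 31.4 in PIP2-1 KO and 391 ± 14.7 in PIP2-1 WT (SD, n = 2 each). It averaged 355 ± 5.19 CPM in PIP2-7 OE, 374 ± 1.04 in PIP2-7 KO and 785 ± 0.620 in PIP2-7 WT (SD, n = 2 each). Like OsPIP2-2, it was above WT in both lines of the first experiment (0.48 and 0.96 in OE and KO) and below WT in both lines of the second (-1.13 and -1.07), and it was higher by 0.99 in PIP2-7 WT than in PIP2-1 WT. OsPIP1-2 rose by 0.50 in PIP2-1 OE and 0.64 in PIP2-1 KO and fell by 0.23 in PIP2-7 OE, where it was higher than WT in TPM, at 715 TPM in PIP2-7 OE and 687 TPM in PIP2-7 WT.

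OsPIP1-3 went another way. It had 149.8 and 152 CPM in PIP2-1 OE, 23.5 and 23.7 CPM in PIP2-1 KO, and 139 and 127 CPM in PIP2-1 WT. The knockout alone was low, and OsPIP1-3 fell by 2.51 in it (SE 0.05, edgeR adjusted p = 2.90e-30). It rose by 0.74 in PIP2-7 KO (SE 0.04, edgeR adjusted p = 1.48e-22), where it had 184 and 173 CPM against 104.8 and 108 CPM in PIP2-7 WT.

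Of 24 TIP, NIP and SIP genes, the aquaporins of the vacuole and of other membranes, 16 could be tested. In PIP2-1 OE 4 rose and 4 fell, and in PIP2-1 KO 5 rose and 4 fell. In PIP2-7 OE 7 rose and 7 fell, and in PIP2-7 KO 4 rose and 7 fell. The genes called were thus 8, 9, 14 and 11 of 16, beside 44.1%, 62.4%, 67.1% and 63.4% of all genes. Medians were -0.09, -0.06, 0.03 and -0.17. OsTIP2-2, a vacuolar membrane channel, rose by 1.35 in PIP2-1 OE and 1.72 in PIP2-1 KO and fell by 2.26 in PIP2-7 OE and fell by 1.58 in PIP2-7 KO (SE 0.03 to 0.04). OsTIP1-2, also of the vacuolar membrane, fell in all 4 lines, with log2 changes of -0.96 in PIP2-1 OE, -0.37 in PIP2-1 KO, -3.54 in PIP2-7 OE and -1.48 in PIP2-7 KO (SE 0.03 to 0.04). OsTIP2-2 and OsTIP1-2 were also higher in PIP2-7 WT than in PIP2-1 WT, by 1.84 and 0.62.

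The authors' deposited table of Cuffdiff results gives a different picture for part of the family. For OsPIP2-1 the authors' deposited table has FPKM values of 1830 in PIP2-1 OE, 751 in PIP2-1 KO and 487 in PIP2-1 WT. RPKM computed from the deposited counts, like FPKM a value per gene length and library size, was 93.2 to 1474 over the 6 groups. The ratio of the FPKM in the authors' deposited table to the count RPKM was 1.24 in PIP2-1 OE and 4.24 to 7.41 in the other 5 groups. Over the 12556 to 13388 genes of at least 5 RPKM in a group, the median of that ratio was 0.954 to 1.04 and its 95th percentile 1.83 to 2.01. OsPIP2-1 therefore stood above that percentile in every group except PIP2-1 OE.

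The make-up of the family differed between the sources as well. From the FPKM of the authors' deposited table OsPIP2-1 takes 48.9% of the family in PIP2-1 WT and OsPIP2-7 38.4%, while the counts gave 22.7% and 58.0% as group means. The log2 change of OsPIP2-1 in PIP2-1 OE against WT is 1.91 in the authors' deposited table and 3.85 from the counts. For OsPIP2-3 the authors' deposited table lists 0.0472 to 0.311 FPKM in all 6 groups and marks no comparison as tested, while the count RPKM was 3.43 to 67.1. For OsPIP2-4 the authors' deposited table calls a change of -1.08 in PIP2-1 OE (q = 0.0305), where the counts gave 0.27 with no call. What separates the sources was not tested.

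**Figure D5:**
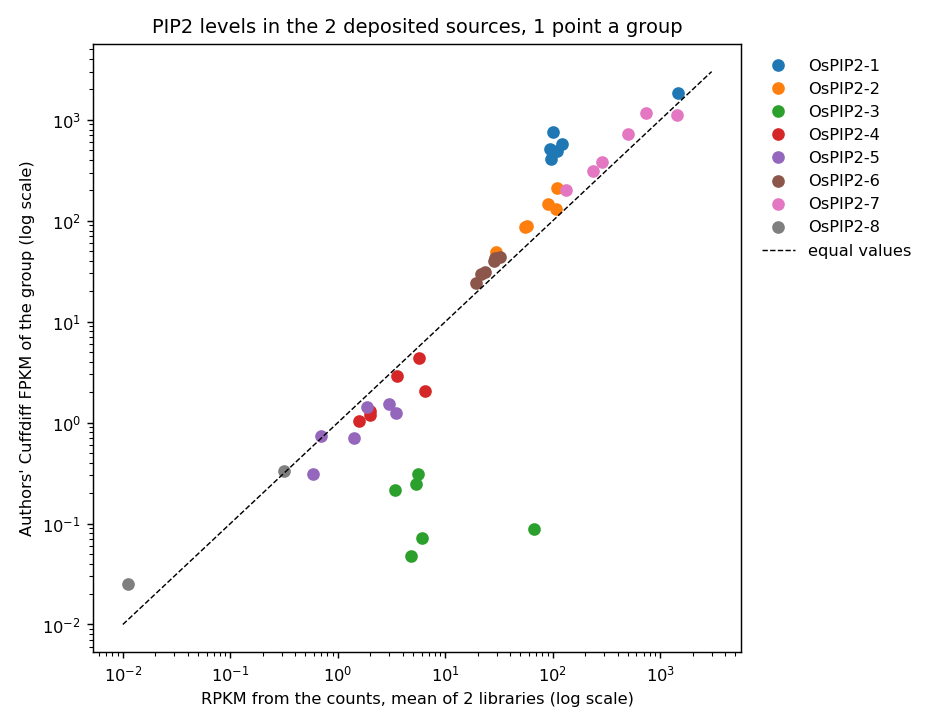
FPKM of each PIP2 gene in the authors' deposited table (vertical axis, log scale) against the mean RPKM from the deposited counts (horizontal axis, log scale), 1 point a group, with groups listed at 0 left out and the dashed line marking equal values. OsPIP2-3 lies far below the line at 0.0472 to 0.311 FPKM, and OsPIP2-1 lies above it by 4.24 to 7.41 times in 5 groups.

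OsPIP2-7 was closer between the sources. In the authors' deposited table OsPIP2-7 differs by 0.64 in PIP2-7 OE (q = 0.00413), -1.83 in PIP2-7 KO (q = 2.70e-04) and 1.60 in PIP2-1 KO (q = 3.30e-04) against the WT of each experiment, where the counts gave 1.29, -2.13 and 1.51. In PIP2-1 OE the authors' value for OsPIP2-7 is -0.30 with no call (Cuffdiff q = 0.174), where the counts called a fall of 0.20. OsPIP2-2 has the same 4 directions in the authors' deposited table, at 0.55 and 1.25 in PIP2-1 OE and KO and -1.61 and -0.77 in PIP2-7 OE and KO. OsPIP2-5 also has the same 4 directions there, but with no call (Cuffdiff q = 0.143 to 0.344), where the counts called all 4. In PIP2-7 OE the directions differed for OsPIP2-1 and OsPIP2-6. The authors' values are 0.33 for OsPIP2-1 (Cuffdiff q = 0.379) and 0.10 for OsPIP2-6 (Cuffdiff q = 0.667), with no call. The counts gave -0.29 and -0.20 there, both called. In the other lines OsPIP2-6 has the same direction in both sources.

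Across the 12 libraries, members differed in what they ran with. Pearson's r of log2(CPM + 1) was 0.99 between OsPIP2-1 and OsPIP2-3, 0.79 between OsPIP2-6 and OsPIP2-7 and -0.89 between OsPIP2-2 and OsPIP2-5. The libraries fall into 6 groups of near-equal pairs, so these are descriptions of few independent points. The PIP2-1 OE libraries stood far above all others in OsPIP2-1 and OsPIP2-3, so the r values of these genes rest largely on that group. The likeness was taken over 12100 genes other than the members described here. Those most like OsPIP2-1 were Os07g0448400 (r = 0.994), Os08g0447500 (r = 0.987) and OsPUB61 (r = 0.979). Os07g0448400 is itself named OsPIP2 by the authors, and its level is uncertain because near-identical PIP2 sequences can share reads. The nearest to OsPIP2-3 were Os08g0447500 (r = 0.990), Os07g0448400 (r = 0.985) and Os07g0558000 (r = 0.974). OsPIP2-2 was closest to OsPP117 (r = 0.995), OsACTPK5 (r = 0.990) and Os07g0666600 (r = 0.990). OsPIP2-6 was closest to Os09g0482680 (r = 0.971), OsPFK05 (r = 0.968) and Os04g0306800 (r = 0.953), and OsPIP2-7 to Os03g0826200 (r = 0.990), Os05g0521400 (r = 0.971) and Os04g0463100 (r = 0.969).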

How the data were processed

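Raw counts per gene were deposited for 12 leaf libraries. Per the file headers they were made with featureCounts 1.4.0 on IRGSP-1.0 with Ensembl Plants release 52, on the reverse strand, with reads of several alignments counted at each place and reads over several genes left out. Trim Galore, HISAT2 and Cufflinks are named without versions in the submitters' processing notes. The authors' deposited tables hold FPKM per group, log2 fold changes, p-values and q-values from Cuffdiff 2.2.1, per the submitters' processing notes. They were used for names and for values credited to them. Names are cut in the files, so the family and the chromosome of the RefSeq gene table (assembly ASM3414082v1) helped to number other aquaporins.

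Counts were tested in R 4.3.3 with edgeR 4.0.16 (filterByExpr, TMM, glmQLFit with robust estimation, glmQLFTest, Benjamini-Hochberg adjustment over all genes tested, threshold 0.05). Each experiment was fitted on its 6 libraries, and the WT pairs and differences between experiments on all 12. SE is the log2 change over the square root of F. Replicates of a group differed by more than sampling noise (chi-square per degree of freedom 2.42 to 7.24). TPM, which carries no TMM scaling, moved the median log2 change of all genes by -0.38 to 0.32 and was used to rank genes and to check directions. In TPM OsPIP2-1 differed by -0.18 in PIP2-1 KO, -0.0022 in PIP2-7 OE, 0.44 in PIP2-7 KO and -0.31 in PIP2-7 WT against PIP2-1 WT. On the same scale OsPIP2-6 differed by 0.09 in PIP2-7 OE. Members and lists were chosen with earlier results of these data known. All members are named. PIP1 genes have values, up to 3 called TIP, NIP or SIP genes a comparison could be named, and the 3 genes with the highest r among genes of at least 10 CPM are given for members of at least 10 CPM. Alternatives were RLE scaling, no filter, DESeq2 1.42.0, the replicate block, each library left out, all 12 or only 4 libraries, and other WT references. The procedure was tested on simulated data.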

Additional observations from a re-analysis of the deposited data

Results flagged for a closer look

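The change in a line against its own WT differed between the experiments for 5 non-target members, by a test of the difference itself in edgeR over 12 libraries. Of all 24556 genes tested, 62.6% were called in this test for overexpression and 67.3% for the knockouts. For overexpression, PIP2-7 minus PIP2-1, the difference was -2.77 for OsPIP2-2, -4.34 for OsPIP2-3 and 3.10 for OsPIP2-5 on the log2 scale. The OsPIP2-3 level is uncertain, because near-identical PIP2 sequences can share reads. Its counts were 4.34% and 4.59% of the OsPIP2-1 counts in PIP2-1 OE, and how many reads were shared was not tested. For the knockouts it was -2.03 for OsPIP2-2, 1.49 for OsPIP2-4, 3.37 for OsPIP2-5 and -1.25 for OsPIP2-6. Each of these differences contains the difference between the WT pairs, which was 0.89 for OsPIP2-2, -1.26 for OsPIP2-4, -1.87 for OsPIP2-5 and 0.54 for OsPIP2-6.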

How the results depend on the processing

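The choice of wild type moved the results most. With all 4 WT libraries as the reference, 24556 genes were tested. Of these, 2061 were called in PIP2-1 OE, 5662 in PIP2-1 KO, 7363 in PIP2-7 OE and 5518 in PIP2-7 KO. Of the 7 PIP2 genes tested, 2, 1, 4 and 1 were called in these lines. Against the other WT pair 2 of the 7 were called in PIP2-1 KO, beside 11365 of 24556 genes. With all 4 WT libraries OsPIP2-4 and OsPIP2-6 in PIP2-7 OE turned to -0.15 and 0.069, and OsPIP2-5 in PIP2-7 KO to -0.017. With the other pair they turned to -0.64, 0.36 and -0.68, and OsPIP2-5 in PIP2-1 OE to 0.87. This follows from the difference between the WT pairs. Over all alternatives, 641 log2 changes of PIP2 genes kept direction and side of the threshold, 39 no longer passed, 7 newly passed and 20 turned, 13 of these near 0 and not past the threshold in either fit. The 13 are OsPIP2-1 in PIP2-1 KO against the other pair (-0.027), OsPIP2-3 between the WT pairs with the replicate block (-0.0018) and over left-out libraries (-0.066 to 0.12), OsPIP2-3 in PIP2-7 KO over left-out libraries (-0.22 to 0.084), and OsPIP2-6 in the difference between overexpressors with RLE (-0.0012), no filter (-0.037), DESeq2 (-0.00053) and left-out libraries (-0.029 to 0.020). RLE scaling changed no call of a PIP2 gene. TPM was not among the alternatives counted. In TPM some uncalled differences turned as well. OsPIP2-3 and OsPIP2-4 were higher in PIP2-7 KO than in PIP2-7 WT, at 6.77 against 5.59 and 2.53 against 2.33 TPM. OsPIP2-3 was lower in PIP2-7 WT than in PIP2-1 WT, at 5.59 against 7.22 TPM. Leaving out 1 library leaves 1 in a group, so counts of genes called are not given for those fits. In the PIP2-1 experiment OsPIP2-8 entered the test in those fits, except without PIP2-1 KO replicate 2.

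The replicate numbers did not pair the samples (correlation of deviations within an experiment -0.21 to 0.06). With the replicate block 10100, 14472, 15753 and 14916 genes were called in PIP2-1 OE, PIP2-1 KO, PIP2-7 OE and PIP2-7 KO, and no call of a PIP2 gene changed. Crossing the numbers in a fit of only the 4 PIP2-1 KO and WT libraries, chosen after seeing the data, gave 14644 genes and 6 PIP2 genes, against 14182 and 5 in the same fit with no block. OsPIP2-5 and OsPIP2-8 are limited by depth.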

Other observations

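The locus on the strand opposite OsPIP2-7, Os09g0541050, had 132 and 132 counts in PIP2-7 OE, 9 and 9 counts in PIP2-7 KO, and 58 and 61 counts in PIP2-7 WT. It had 24 and 29 counts in PIP2-1 OE, 76 and 63 counts in PIP2-1 KO, and 16 and 26 counts in PIP2-1 WT. Over the 12 libraries these were 0.225% of the OsPIP2-7 counts, and whether they come from the opposite strand was not tested. Another locus named OsPIP2 in the authors' deposited table, Os10g0481100 on chromosome 10, had 3 counts in all libraries together.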
